A study of Mus musculus with 2 samples.

Results

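The cells described here are the Hmox1-high phagocytes of the magnetic column flowthrough, 414 of the 8279 phagocytes gated in that fraction and 414 of the 23792 barcodes of both fractions. A flowthrough barcode entered the gate with at least 3000 UMIs (unique molecular identifiers, each counting 1 captured transcript), at most 15% mitochondrial UMIs, at least 3 of the 4 phagocyte genes Csf1r, Cd68, Ctss and Fcgr3 detected, at most 1 Cdh5 UMI, at most 2 Rgs5 UMIs and at most 3 Col1a1 UMIs. Of the gated cells, the top 5% by Hmox1 UMIs per 10000 UMIs of the cell were taken, so Hmox1 itself and everything measured against the rest of the flowthrough describe the choice and support nothing. They are set against 1627 eluate phagocytes that passed the same gate with Hmox1 at or above the same cutoff. The 7865 other flowthrough phagocytes and the 5413 other eluate phagocytes give the levels below the cutoff.

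The tumors were syngeneic fibrosarcomas grown from a subcutaneous implant in C57BL/6 mice of wild type, digested with collagenase B and DNase I at 37 °C for 45 min, filtered, freed of red cells by lysis and passed over a magnetic column. The flowthrough, the fraction that the column did not enrich for iron, and the iron-enriched eluate gave 1 single-cell 3' RNA-seq library each. The labels do not give the number of animals or tumors behind a library. With 1 library per fraction no difference between fractions could be tested. Gene levels are given with exact 95% intervals that cover the counting of UMIs only, not the spread between cells, animals or column runs. Shares of cells are given with exact 95% binomial intervals that count cells. Those treat the cells of 1 library as independent draws and do not cover the spread between animals or column runs.

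Heme oxygenase 1, the product of Hmox1, opens the heme ring and releases iron, carbon monoxide and biliverdin. Macrophages that clear red cells use it to recover iron, which is then stored in ferritin (heavy chain Fth1, light chain Ftl1) or exported through ferroportin (Slc40a1), the only known iron exporter of mammalian cells. Hmox1 is held down by the repressor BACH1, which heme inactivates, and is switched on by NRF2, the transcription factor of the oxidative stress response, which binds antioxidant response elements together with small MAF proteins. NRF2 targets include the glutathione synthesis genes Gclm and Gclc, the peroxiredoxin Prdx1 and the sulfiredoxin Srxn1.

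The promoters of 3 such targets are shown as examples, chosen because Gclm, Prdx1 and Srxn1 stood higher in the Hmox1-high than in the other cells of both fractions and also hold a match to the motif searched. Gstm1, Slc7a11, Cat and Sqstm1 stood higher in the Hmox1-high cells too, and their windows hold no match. Each window runs from 250 bases before to 50 bases after the RefSeq transcription start on GRCm38.p6, all on the + strand, at chr3:122245307-122245606 for Gclm, chr4:116685349-116685648 for Prdx1 and chr2:152105274-152105573 for Srxn1. Capitals mark the match to the antioxidant response element core TGACNNNGC, searched on both strands, which lies on the - strand in all 3.
Gclm: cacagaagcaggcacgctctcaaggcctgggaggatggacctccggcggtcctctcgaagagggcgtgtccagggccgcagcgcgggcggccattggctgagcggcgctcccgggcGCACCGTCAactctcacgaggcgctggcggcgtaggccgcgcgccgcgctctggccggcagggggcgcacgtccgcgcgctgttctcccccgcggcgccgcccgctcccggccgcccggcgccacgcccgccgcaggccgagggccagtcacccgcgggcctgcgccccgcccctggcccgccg
Prdx1: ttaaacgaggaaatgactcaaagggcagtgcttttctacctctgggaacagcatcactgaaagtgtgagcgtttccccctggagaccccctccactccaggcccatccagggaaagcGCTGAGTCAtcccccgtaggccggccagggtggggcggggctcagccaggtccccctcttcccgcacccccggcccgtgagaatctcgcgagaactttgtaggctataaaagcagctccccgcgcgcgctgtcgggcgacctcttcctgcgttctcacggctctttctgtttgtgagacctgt
Srxn1: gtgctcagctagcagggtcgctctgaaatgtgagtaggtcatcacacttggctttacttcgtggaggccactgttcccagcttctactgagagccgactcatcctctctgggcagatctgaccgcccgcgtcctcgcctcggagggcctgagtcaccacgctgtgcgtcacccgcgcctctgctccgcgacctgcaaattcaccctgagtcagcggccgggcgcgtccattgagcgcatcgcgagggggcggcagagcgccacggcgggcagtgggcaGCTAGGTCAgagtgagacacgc
Of the 21 NRF2 targets measured between the Hmox1-high groups, 18 had a RefSeq window, 22 windows in all. The core was held by 7 of these 18 genes and by 7 of the 22 windows. Among all 32851 RefSeq promoter windows of this length 12.4% held it. The E-box CACGTG, which reads alike on both strands, was in none of the 22 windows and in 7.15% of all windows. A match is a description of the letters and not a binding site. Hmox1 itself lies on chromosome 8, 75093621 to 75100589 on the + strand, and Slc40a1 on chromosome 1, 45908068 to 45926523 on the - strand (GENCODE, GRCm38).

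The flowthrough library held 10124 barcodes and 132796517 UMIs, the eluate library 13668 barcodes and 129921053 UMIs. The gate kept 81.8% of flowthrough barcodes and 51.5% of eluate barcodes. The flowthrough Hmox1-high cells were the shallowest of the 4 groups, with a median of 9016 UMIs per cell, against 14395 in other flowthrough, 10480 in eluate Hmox1-high and 11451 in other eluate phagocytes. They held 4395695 UMIs in all, against 19261331 in the eluate Hmox1-high cells. The libraries shared 85 barcode sequences, 3 of them in the flowthrough Hmox1-high cells and 4 in the eluate Hmox1-high cells. Scrublet called no doublets in either library, so it did not work here, and doublets were not removed. The highest doublet scores were those of 820 of the 10124 flowthrough and 1495 of the 13668 eluate barcodes, a different share in each library. Of the flowthrough Hmox1-high cells 2.90% had one of these scores, against 9.68% of other flowthrough phagocytes. Of the eluate Hmox1-high cells 10.9% had one, against 11.05% of other eluate phagocytes.

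The cutoff fell at 18.02 Hmox1 UMIs per 10000 inside a continuous tail rather than at a gap. The lowest member had 18.018 and the highest cell left out 18.0018, with 24 members within 1 UMI per 10000 above the cutoff and 32 cells within 1 below it. Members ranged up to 216 with a median of 32.8, and carried between 6 and 434 Hmox1 UMIs each. Other flowthrough phagocytes had a median of 1.48, and 20% of them had no Hmox1 UMI. In the eluate 23.1% of gated phagocytes (95% exact binomial interval 22.1 to 24.1%) reached the flowthrough cutoff, against the 5% that the rule sets in the flowthrough, a ratio of 4.62. Above the cutoff the eluate cells also ran higher, with a median of 45.8 and a maximum of 292.

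**Figure D1:**
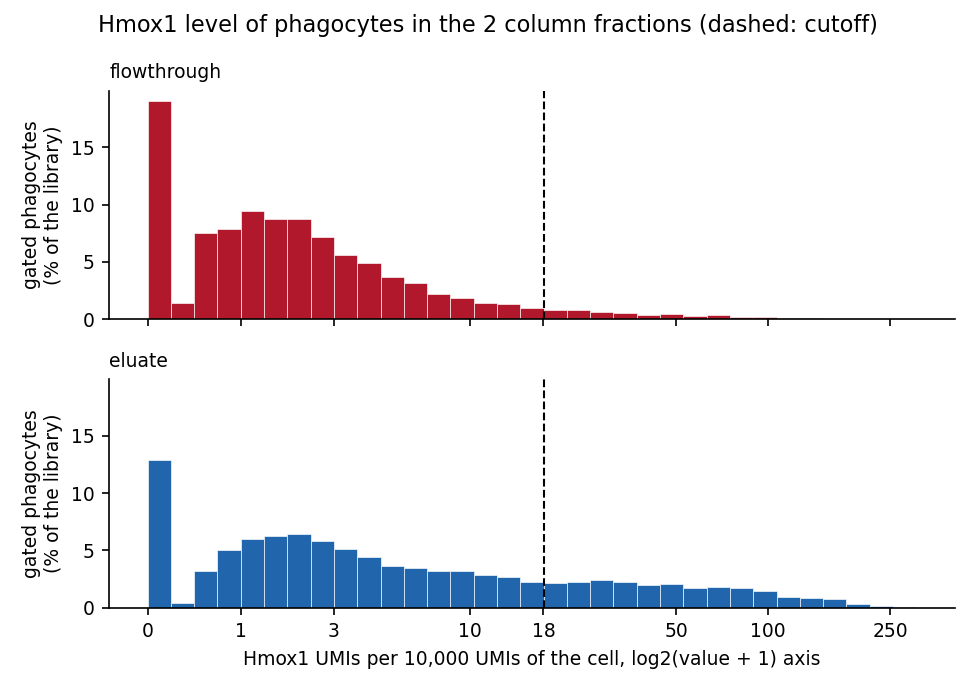
Hmox1 UMIs per 10000 UMIs of the cell on a log2(value + 1) axis, as the percentage of gated phagocytes of the flowthrough (top) and of the eluate (bottom) in each bin. The dashed line is the cutoff at 18.02, above which lie 5% of flowthrough and 23.1% of eluate phagocytes, with no gap in either library.

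The members carried the label's phagocyte identity. All 10 phagocyte genes of the marker list, among them Adgre1 and C1qa, stood at 20 counts per 1000000 UMIs (CPM) or more. They summed to 18254 CPM in flowthrough Hmox1-high and 17901 CPM in eluate Hmox1-high cells. The gate genes Csf1r, Cd68, Ctss and Fcgr3 are 4 of the 10 and part of these sums, so those 4 are no check. Marker lists of T and NK cells and of pericytes were low, whereas some other lists were not. The T and NK cell list summed to 21.4 CPM in flowthrough Hmox1-high and 17.8 CPM in eluate Hmox1-high cells, with Cd3e, Trac, Cd8a, Klrb1c and Ncr1 at 0 in the flowthrough cells. Pericyte genes summed to 8.64 CPM in flowthrough Hmox1-high cells, with 6 of 8 at 0 and Pdgfrb, Myh11 and Notch3 among them, and to 19.1 CPM in eluate Hmox1-high cells. The gate itself capped Rgs5 of the pericyte list, Col1a1 of the mesenchymal list and Cdh5 of the endothelial list, so those genes are no check. The mesenchymal list summed to 39.8 CPM in flowthrough Hmox1-high and 120 CPM in eluate Hmox1-high cells, and what part RNA of such cells has in the differences was not tested. The neutrophil list summed to 97.8 CPM in flowthrough Hmox1-high and 212 CPM in eluate Hmox1-high cells, with its defining gene Ly6g at 0 in both. Red cell RNA was nearly absent: the members held 1 Hba-a1 UMI and 2 Hbb-bs UMIs in all, and Alas2 and Slc4a1 were at 0. The whole red cell and platelet list summed to 5547 CPM in flowthrough Hmox1-high and 5873.5 CPM in eluate Hmox1-high cells. Its 2 genes at 20 CPM or more were the chemokine genes Pf4 and Ppbp. The plasmacytoid dendritic cell list summed to 699 and 593 CPM in these groups, and the osteoclast list to 375 and 402 CPM.

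The Hmox1-high flowthrough cells were not a single state. The gated phagocytes of both libraries were clustered on 1965 variable genes that left out Hmox1 and the iron, heme, NRF2, glutathione and metallothionein lists. Of 17 clusters, 4 held 349 of the 414 members (84.3%), against 10.8% of other flowthrough, 93.2% of eluate Hmox1-high and 25.9% of other eluate phagocytes. The clusters are called here by number and by the genes that lead them.

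Cluster 3 (Saa3, Ccl5, Slpi, Nos2, Mmp9) held the most members, 171 cells or 41.3% of them, against 4.8% of other flowthrough phagocytes. Cluster 11 (Retnla, Lyve1, Ednrb, Cbr2, Clec10a) held 95 members or 22.9%, against 4.7% of other flowthrough phagocytes. Cluster 4 (Mmp12, Cd36, Mmp8) held 44 members or 10.6% and cluster 9 (Cd209f, Cd209g, Cd163, C6) 39 members or 9.4%. These last clusters were rare in the rest of the flowthrough, at 0.5% and 0.7%. The other 65 members were spread thinly, with 16 in cluster 5 (Ly6c2, Plac8), 15 in cluster 0 (Fcrls, Vcam1), 10 in the cycling clusters 7, 8 and 12, and 2 in cluster 2 (H2-Eb1, H2-Ab1). None were in the 4 smallest clusters, whose leading genes are those of mesenchymal, endothelial, T or NK cells and osteoclasts.

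The make-up differed from that of the eluate Hmox1-high cells. Of those, 49.5% were in cluster 4 and 2.2% in cluster 11, with 22.9% in cluster 3 and 18.7% in cluster 9. Cluster 4 came mostly from the eluate library, with 1338 of its 1423 cells, so a cell state and a property of that library cannot be told apart for it. Because genes that differ between the groups helped to form these clusters, the cells were clustered again without the genes past 1.5-fold between the Hmox1-high groups. A cluster led by Retnla, Saa3 and Clec10a then held 43.5% (interval 38.6 to 48.4%) of flowthrough Hmox1-high and 30.4% (28.2 to 32.7%) of eluate Hmox1-high cells. A cluster led by Mmp12, Cxcl3 and Cd36 held 38.6% (33.9 to 43.5%) of flowthrough Hmox1-high and 59.4% (56.9 to 61.8%) of eluate Hmox1-high cells. These are not the same clusters as before: the cluster led by Mmp12, Cxcl3 and Cd36 holds 86.6% of the earlier cluster 4 and 50.9% of cluster 3, and the one led by Retnla, Saa3 and Clec10a holds 92.7% of cluster 11, 99.8% of cluster 9 and 40.4% of cluster 3. Sizes of the differences are therefore not comparable between the clusterings.

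The share of Hmox1-high cells within a cluster was higher in the eluate in each of these 4 clusters. In cluster 4 it was 51.8% of flowthrough and 60.2% of eluate cells, in cluster 9 41.1% and 58.3%, in cluster 3 31.0% and 39.9%, and in cluster 11 20.3% and 28.8%. In every other cluster at most 5.3% of the cells of either library were Hmox1-high. Most of these clusters also had the higher share in the eluate, such as cluster 0 with 0.89% of flowthrough and 3.43% of eluate cells and cluster 12 with 0.30% and 5.28%. Cluster 2 did not, at 0.197% and 0.180%.

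**Figure D2:**
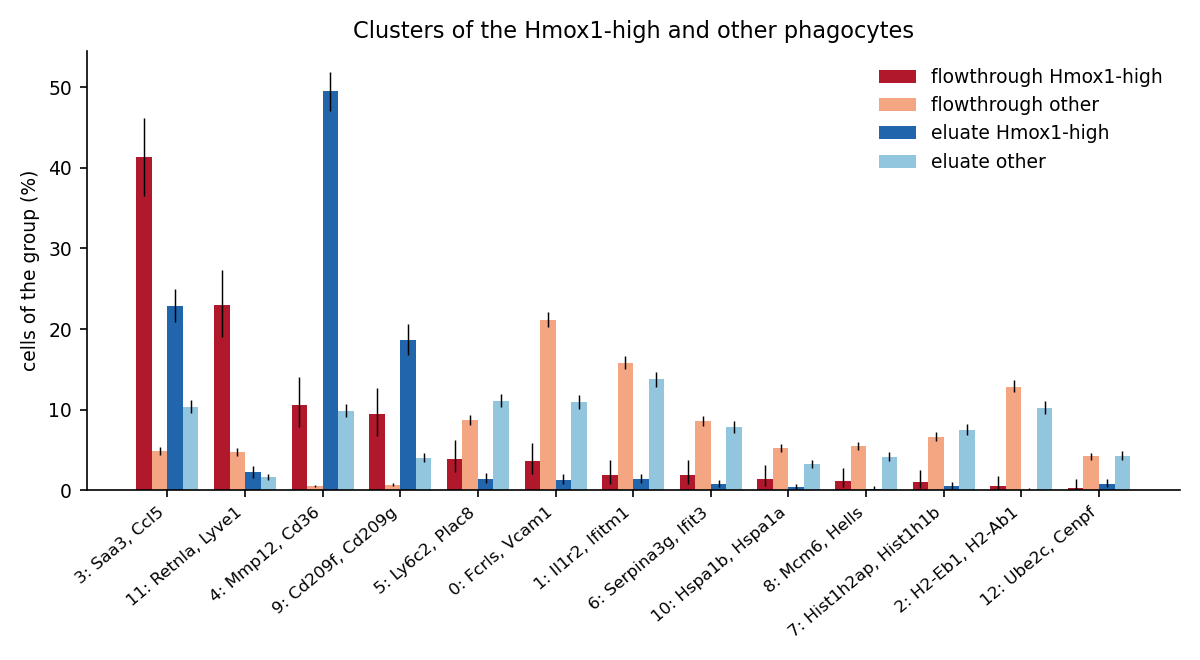
Percentage of each group's cells in each cluster (clusters with at least 2% of some group), for flowthrough Hmox1-high, other flowthrough, eluate Hmox1-high and other eluate phagocytes, with exact 95% binomial bars. Flowthrough Hmox1-high cells peak in cluster 3 (41.3%) and cluster 11 (22.9%), and eluate Hmox1-high cells in cluster 4 (49.5%).

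Genes that set the members' clusters apart from each other describe these states, and since the cells were clustered on them they are no separate finding. Members in cluster 3 carried the granulocyte-attracting chemokine Cxcl5 at 81.2 CPM, against 5.83 CPM in the other members, and inducible nitric oxide synthase Nos2 at 333 against 69.2 CPM. Saa3, the leading gene of cluster 3, did not set its members apart. It had 1483 CPM in members of cluster 3, 2717 CPM in cluster 11, 235 CPM in cluster 4 and 4625.5 CPM in cluster 9. Members in cluster 11 had the hyaluronan receptor Lyve1 at 361 CPM, against 74.4 CPM in the other members, and the endothelin receptor Ednrb at 477 against 104 CPM. Both genes were also high in the members of cluster 9, with Lyve1 at 355 CPM and Ednrb at 366 CPM. Retnla, the leading gene of cluster 11, was scarce in the members themselves: they held 95 Retnla UMIs in all, 80.0% of them in 10 cells, and the members of cluster 11 stood at 53.8 CPM, against 1717 CPM in the other flowthrough cells of that cluster. Members in cluster 4 had the macrophage elastase Mmp12 at 2208 CPM, against 169 CPM in the other members, and adrenomedullin (Adm) at 244 against 13.6 CPM. Members in cluster 9 had the lectin Cd209f at 373 CPM, against 11.7 CPM in the other members, and complement C6 at 289 against 32.3 CPM.

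Against the other flowthrough phagocytes, which is a description of the choice by Hmox1, 590 of 6089 genes at 20 CPM or more in either group were at least 1.5-fold higher (9.69%) and 671 at least 1.5-fold lower (11%) in the members. With scaling by the median ratio the split was 736 higher and 489 lower, and with mitochondrial, ribosomal protein and Gm42418 UMIs left out of the totals it was 520 higher and 1031 lower. Of 21 measured NRF2 targets 15 were higher and none lower, with a median log2 ratio of 1.36 beside -0.09 over all genes. Gclm stood at 267 CPM in flowthrough Hmox1-high and 33.0 CPM in other flowthrough cells, Srxn1 at 168 and 41.1 CPM, and Prdx1 at 3248 and 729 CPM. Hypoxia and glycolysis genes, which respond to low oxygen, were higher in 20 of 25 with a median of 0.77, among them Bnip3 at 539 and 147 CPM and Ero1l at 358 and 85.5 CPM. Adm, at 43.7 CPM in the members and 0.628 CPM in other flowthrough cells, had the largest ratio of the genes named, but 10 cells held 78.1% of its 192 UMIs.

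Most genes of chemokines, of matrix turnover and of alternatively activated macrophages were higher too. Of 15 matrix genes 11 were higher and 2 lower (median 1.16). Of 13 genes of arginine metabolism and alternative activation 9 were higher and 3 lower (median 1.30), Retnla among the lower ones at 21.6 CPM in flowthrough Hmox1-high and 57.7 CPM in other flowthrough cells. Chemokines were higher in 13 of 18 and lower in 2 (median 1.71): Ccl6 stood at 3325 CPM in flowthrough Hmox1-high and 587 CPM in other flowthrough cells and platelet factor 4 (Pf4) at 5450 and 1292 CPM, whereas the T cell-attracting Cxcl9 was lower at 621 and 1506 CPM. The coagulation factor F13a1 had 1416 CPM in the members and 133 CPM in other flowthrough cells. The acute phase gene Saa3 had 1634 and 70.5 CPM, and was detected in 43.5% of members, with 42.5% of its UMIs in 10 cells. All 7 measured MHC class II genes were lower (median -1.37), with the invariant chain Cd74 at 3935 CPM in flowthrough Hmox1-high and 9496 CPM in other flowthrough cells. Of 17 cell cycle genes 16 were lower (median -1.36), with topoisomerase Top2a at 20.9 and 130 CPM. The apoptotic cell receptor Axl stood at 30.7 and 177 CPM and the fractalkine receptor Cx3cr1 at 52.3 and 278 CPM.

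Much of this pattern went with Hmox1 in the eluate as well. Over the 5824 genes measured in both libraries other than Hmox1, 551 were at least 1.5-fold higher in Hmox1-high than in other flowthrough cells and 437 in Hmox1-high than in other eluate cells. Over all 5929 genes measured in the eluate, 483 were that much higher (8.15%) and 618 that much lower (10.4%). The lists shared 361 genes, 65.5% of the flowthrough list and 82.6% of the eluate list. Of the lower genes, 631 in the flowthrough and 611 in the eluate, 415 were shared. In the eluate the NRF2 targets were higher in 17 of 21, the MHC class II genes lower in 7 of 7 and the cell cycle genes lower in 16 of 17. Type I interferon genes differed in count: 5 of 12 were higher and none lower in the flowthrough Hmox1-high cells, and 1 of 11 higher and 2 lower in the eluate Hmox1-high cells. Whether the libraries differ in this was not tested.

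Comparison of the Hmox1-high cells of the fractions at the same cutoff was what the rule did not use. Of 5770 genes at 20 CPM or more in either group, 340 were at least 1.5-fold higher (5.89%) and 140 at least 1.5-fold lower (2.43%) in flowthrough than in eluate Hmox1-high cells. Without the barcodes that the libraries share the counts were 348 higher and 142 lower. The median log2 ratio over all of them was 0.11, and scaling by the median ratio, which moves every gene down by that amount, gave 187 higher and 204 lower. With mitochondrial, ribosomal protein and Gm42418 UMIs left out of the totals the split was 261 higher and 195 lower. All ratios are on the CPM scale and are to be read against that median.

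The flowthrough cells had less transcript for storing and exporting iron, while most genes of heme handling differed little. Ferroportin, Slc40a1, stood at 71.9 CPM (316 UMIs) in flowthrough Hmox1-high and 360 CPM (6935 UMIs) in eluate Hmox1-high cells, 5.0-fold lower in the flowthrough (log2 ratio -2.32, interval -2.49 to -2.16). It was seen in 16.7% of flowthrough Hmox1-high and 53.1% of eluate Hmox1-high cells, and in 7.97% and 35.3% after each cell was thinned to 3000 UMIs. In the flowthrough cells 10 cells held 51.3% of its UMIs. Below the cutoff it had 3.1 CPM in other flowthrough and 30.5 CPM in other eluate phagocytes, so the fraction with more ferroportin was the eluate at both Hmox1 levels. The ferritin chains were also past the fold: Fth1 had 23842 CPM in flowthrough Hmox1-high and 38441 CPM in eluate Hmox1-high cells (log2 ratio -0.69), and Ftl1 11222 and 17755 CPM (-0.66). The mitochondrial iron carrier Slc25a37 had 38.9 and 60.8 CPM (-0.64). These were the 4 of 14 iron storage and export genes past 1.5-fold, all lower in the flowthrough, around a list median of 0.04.

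Hmox1 itself was at 4750 CPM in flowthrough Hmox1-high and 5958 CPM in eluate Hmox1-high cells, a description only. The heme transporter Slc48a1, which brings heme out of the phagolysosome, had 315 and 404 CPM (log2 ratio -0.36). The haptoglobin-hemoglobin receptor Cd163 had 114 and 126 CPM (-0.15) and biliverdin reductase Blvrb 438 and 513 CPM (-0.23). Only Bach1 passed the fold among 8 heme breakdown and synthesis genes, at 286 CPM in flowthrough Hmox1-high and 184 CPM in eluate Hmox1-high cells (0.64). Of 9 iron and heme import genes only the transferrin receptor Tfrc did, at 30.3 and 18.4 CPM (0.72). Transferrin (Trf), ceruloplasmin (Cp) and the iron regulators Aco1 and Ireb2 stayed below 1.5-fold.

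NRF2 targets were lower in the flowthrough cells although both groups were chosen for high Hmox1. Of 21 measured targets 9 were at least 1.5-fold lower and none higher, with a median log2 ratio of -0.38. Gclm had 267 CPM in flowthrough Hmox1-high and 605 CPM in eluate Hmox1-high cells (-1.18). The glutathione transferase Gstm1 had 115 and 273 CPM (-1.24), glutathione reductase Gsr 86.9 and 190 CPM (-1.13), and Prdx1 3248 and 6282 CPM (-0.95). The cystine transporter Slc7a11, the catalase gene Cat, Esd, Osgin1 and Srxn1 made up the 9. The levels of Gclc, 151 and 181 CPM, and of Txnrd1, 335 and 376 CPM, were closer. Nfe2l2, the gene of NRF2, stood at 365 CPM in flowthrough Hmox1-high and 273 CPM in eluate Hmox1-high cells (0.42), and the small MAF gene Mafk at 92.4 and 55.1 CPM (0.75). Of the metallothioneins, which bind zinc and copper, Mt2 had 520 and 907 CPM (-0.80), while the zinc exporter Slc30a1 was higher at 131 and 74.0 CPM (0.83). Mt3 had the lowest ratio of the genes named, 2.96 and 81.0 CPM, but in the eluate 10 cells held 82.1% of its UMIs.

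MHC class II genes, which present antigen to T cells, were higher in the flowthrough Hmox1-high cells. All 6 measured members passed the fold, with a median log2 ratio of 1.30. H2-Aa had 1657 CPM in flowthrough Hmox1-high and 558 CPM in eluate Hmox1-high cells (1.57, interval 1.53 to 1.61), H2-Eb1 1080 and 346 CPM (1.64), and Cd74 3935 and 1699 CPM (1.21). H2-Aa was seen in 80.7% of flowthrough Hmox1-high and 48.3% of eluate Hmox1-high cells thinned to 3000 UMIs. Both groups stood below the phagocytes under the cutoff, where H2-Aa had 3665 CPM in other flowthrough and 2958 CPM in other eluate cells. The 13 class I genes were all above 0 as well but none passed the fold, with a median of 0.34 and a range of 0.067 to 0.51.

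Genes of blood monocytes were among those with the largest ratios, and 4 of 5 measured genes of the monocyte list were higher and Chil3 lower (median 1.23). The chemokine receptor Ccr2, by which monocytes leave the bone marrow, had 88.0 CPM in flowthrough Hmox1-high and 17.4 CPM in eluate Hmox1-high cells (log2 ratio 2.34, interval 2.12 to 2.55). Plac8, abundant in monocytes, had 313 and 80.6 CPM (1.96). The other monocyte genes were at low levels in both groups, with Ly6c2 at 38.2 CPM in flowthrough Hmox1-high and 21.9 CPM in eluate Hmox1-high cells and Vcan at 42.3 and 18.1 CPM. Of genes known from resident and alternatively activated macrophages, the carbonyl reductase Cbr2 had 316 and 94.3 CPM (1.75), Lyve1 125 and 42.8 CPM (1.55) and the PD-1 ligand Pdcd1lg2 34.8 and 9.86 CPM (1.82). Lyve1 was unevenly spread, with 63.7% of its flowthrough UMIs in 10 cells, and its ratio was -0.24 when the eluate cells were weighted to the members' clusters. Of the 13 measured genes of arginine metabolism and alternative activation 8 were higher and 2 lower (median 0.68, and 0.05 with that weighting).

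Lipid-associated genes were more often lower than higher. Of 19 lipid-associated genes 7 were lower and 1 higher (median -0.38). Within clusters 3 and 9 the list median was -0.27 in each, but it was 0.094 within cluster 11 and 0.098 within cluster 4. Mmp12 had 435 CPM in flowthrough Hmox1-high and 2015 CPM in eluate Hmox1-high cells (log2 ratio -2.21), the melanosomal glycoprotein Gpnmb 45.7 and 194 CPM (-2.08), the tetraspanin Cd9 50.05 and 178 CPM (-1.83), osteopontin (Spp1) 139 and 428 CPM (-1.62) and the fatty acid receptor Cd36 206 and 601 CPM (-1.54). Lipoprotein lipase (Lpl) was the exception, at 68.9 CPM in flowthrough Hmox1-high and 26.6 CPM in eluate Hmox1-high cells (1.38). The matrix genes had no common direction, with 3 of 16 lower, 1 higher and a median of 0.19, beside 0.11 over all genes. The collagenase Mmp8 was lower at 13.7 CPM in flowthrough Hmox1-high and 105 CPM in eluate Hmox1-high cells, with 95% of the flowthrough UMIs in 10 cells, and Mmp9 did not pass the fold at 253 and 185 CPM. Sparc, a secreted matrix protein on the mesenchymal list, had 9.55 CPM in flowthrough Hmox1-high and 51.3 CPM in eluate Hmox1-high cells (-2.41).

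Chemokine genes were more often higher than lower in the flowthrough cells, 8 of 18 against 1 (median 0.51). Saa3, outside that list, had 1634 CPM in flowthrough Hmox1-high and 847 CPM in eluate Hmox1-high cells (0.95). Ccl8 had 9578 CPM in flowthrough Hmox1-high and 5320 CPM in eluate Hmox1-high cells (0.85), Cxcl9 621 and 273 CPM (1.18) and Ccl12 270 and 155 CPM (0.80). The neutrophil-attracting Cxcl3 was the gene that was lower, 160 and 283 CPM (-0.82), and its ratio was 0.08 without cluster 4. Type I interferon genes were higher in 6 of 12, with Irf7 at 198 and 101 CPM (0.97), but their median of 0.56 became -0.08 when the eluate cells were weighted to the members' clusters. For the interferon gamma list 3 of 13 were higher, and its median of 0.40 became -0.06. Over all clusters together hypoxia and glycolysis genes hardly differed, with 1 of 25 lower, none higher and a median of -0.02. Bnip3 had 539 and 562 CPM and Vegfa 482 and 490 CPM. Within cluster 3 these genes hardly differed either (median 0.092), whereas within clusters 11, 4 and 9 more of them were higher than lower.

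**Figure D3:**
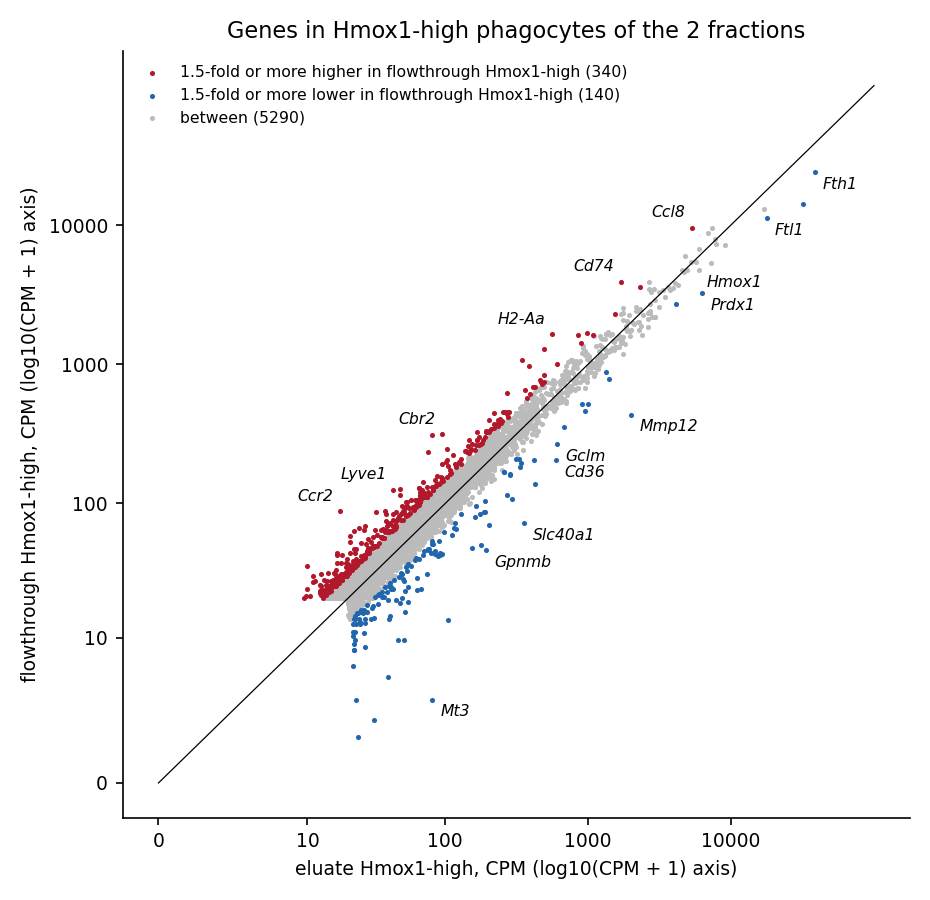
Level of each measured gene in flowthrough Hmox1-high cells (vertical) against eluate Hmox1-high cells (horizontal), both in CPM on a log10(CPM + 1) axis, with the line of equal levels. The 340 genes at least 1.5-fold higher in the flowthrough cells (red) include H2-Aa, Cd74, Ccr2 and Cbr2, and the 140 lower (blue) include Slc40a1, Mmp12, Gclm, Fth1 and Ftl1.

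Since the fractions filled different clusters, the groups were compared within each of the 4 clusters. Ferroportin was lower in the flowthrough cells of all 4, with intervals below 0: Slc40a1 had 75.7 CPM in flowthrough and 279 CPM in eluate Hmox1-high cells of cluster 3 (log2 ratio -1.88), 15.4 and 42.1 CPM in cluster 11 (-1.45), 146 and 416 CPM in cluster 4 (-1.50), and 100 and 335 CPM in cluster 9 (-1.73). In cluster 11 the ratio rests on only 12 Slc40a1 UMIs in each group, with an interval of -2.74 to -0.17. The intervals cover counting only, and 10 cells held 51.3% of the Slc40a1 UMIs of all flowthrough Hmox1-high cells. Slc40a1 was not among the genes used to cluster. The depth of the cells was alike in these pairs, with median UMIs of 9452 and 9576 in cluster 3, 6779 and 7003 in cluster 11, 11019 and 11409 in cluster 4, and 10323 and 9882.5 in cluster 9.

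Ferritin and NRF2 targets differed less once the cluster was the same. The log2 ratio of Fth1 was -0.37, 0.01, -0.37 and -0.11 in clusters 3, 11, 4 and 9, and that of Ftl1 -0.18, 0.14, -0.34 and -0.12. Gclm was below 0 in all 4, at -0.76, -0.20, -0.39 and -0.37, though the interval in cluster 11 included 0. Past 1.5-fold, 6 of 21 NRF2 targets were lower and 2 higher in cluster 3, where 2.82% of all genes were lower and 5.17% higher. In cluster 11 the count was 4 of 20 lower and 4 higher (15.6% of all genes lower, 11.6% higher). In cluster 4 it was 4 of 22 lower and none higher (7.03% lower, 8.6% higher), and in cluster 9 it was 2 of 20 lower and none higher (5.64% lower, 11.9% higher). Mmp12 was lower in all 4 clusters, also in those it does not lead, with 150 CPM in flowthrough and 676 CPM in eluate Hmox1-high cells of cluster 3 and 14.9 and 79.2 CPM in cluster 9. In clusters 11 and 9 its flowthrough level was below 20 CPM, with 6 UMIs in cluster 11.

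H2-Aa was higher in the flowthrough cells of all 4 clusters, most in clusters 3 and 4. It had 1700 CPM in flowthrough and 768 CPM in eluate Hmox1-high cells of cluster 3 (1.15), 2303 and 1787 CPM in cluster 11 (0.36), 815 and 296 CPM in cluster 4 (1.46), and 903 and 697 CPM in cluster 9 (0.38). Of 6 class II genes 5 were at least 1.5-fold higher in cluster 3, none in cluster 11, 4 in cluster 4 and 1 in cluster 9. Of all genes, 5.17% were that much higher in cluster 3, 11.6% in cluster 11, 8.60% in cluster 4 and 11.9% in cluster 9. The shares lower were 2.82%, 15.6%, 7.03% and 5.64% in the same order. Hypoxia and glycolysis genes were at least 1.5-fold higher in the flowthrough cells in 1 of 25 and lower in 2 in cluster 3 (median 0.092), higher in 9 of 24 and lower in 1 in cluster 11 (0.54), higher in 4 of 25 and lower in none in cluster 4 (0.31), and higher in 7 of 24 and lower in 1 in cluster 9 (0.45). Other genes depended on the cluster. The log2 ratio of Plac8 was 1.66 in cluster 3, 2.37 in cluster 4 and 0.42 in cluster 9, and in cluster 11 it was -0.15 with an interval that included 0. Lyve1 was higher in the flowthrough cells of cluster 9 (2.45) and lower in those of cluster 11 (-0.97), and Cd163 was lower in cluster 9, at 91.5 CPM in flowthrough and 510 CPM in eluate cells (-2.46), but higher in clusters 3 (0.50) and 4 (1.04).

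**Figure D4:**
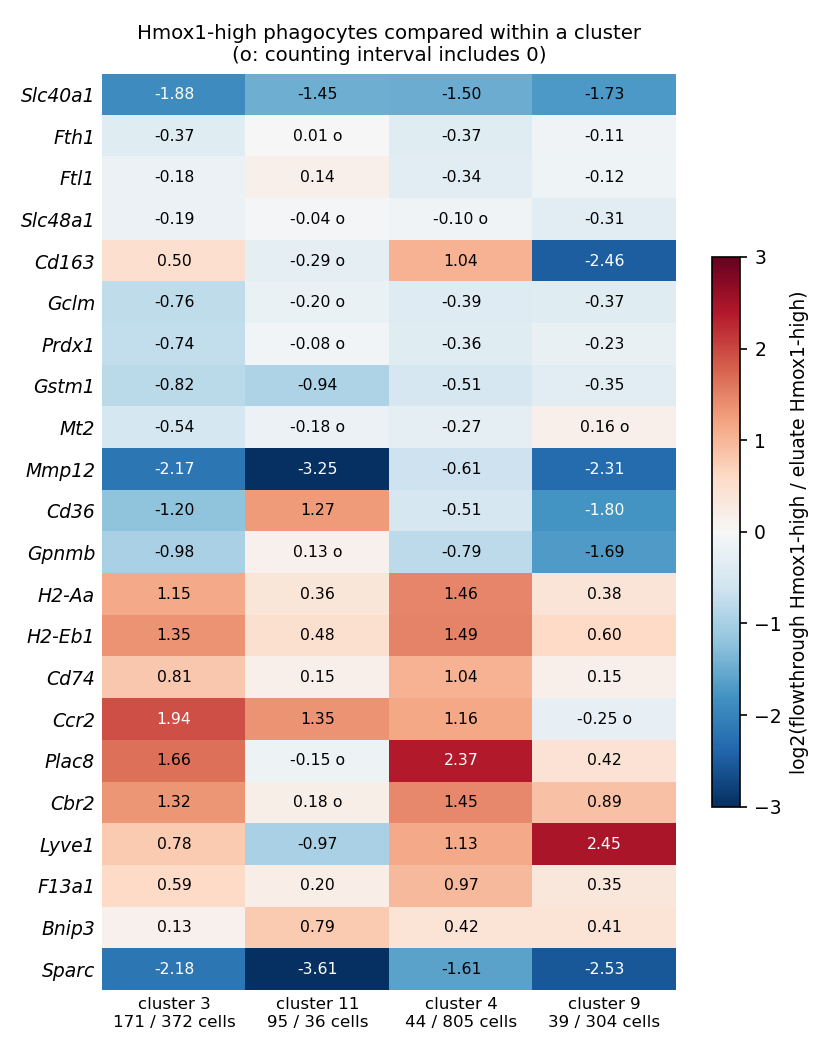
Log2 ratio of flowthrough over eluate Hmox1-high cells for 22 genes within clusters 3, 11, 4 and 9, with the number of flowthrough and eluate cells under each column and an o where the counting interval includes 0. Slc40a1, Mmp12, Gstm1 and Sparc are below 0 and H2-Aa, H2-Eb1, Cd74 and F13a1 above 0 in all 4 clusters, whereas Cd163, Lyve1 and Cd36 change sign between clusters.

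Within a cluster the members also differed from the other flowthrough cells of that cluster, again as a description of the choice. Hmox1 had 4740 CPM in the members and 640 CPM in the other flowthrough cells of cluster 3. Slc40a1 was higher in the members in all 4 clusters, from 15.4 and 2.90 CPM in cluster 11 to 146 and 15.4 CPM in cluster 4. NRF2 targets passed the fold upward in 16 of 21 in cluster 3 (2.87% of all genes there), 9 of 20 in cluster 11 (6.5%), 12 of 20 in cluster 4 (15.9%) and 9 of 20 in cluster 9 (12.1%). Of the hypoxia and glycolysis genes 3 of 23 did so in cluster 3, 17 of 23 in cluster 11, 11 of 25 in cluster 4 and 19 of 23 in cluster 9. MHC class II genes were at least 1.5-fold lower in 7 of 7 in cluster 11 (7.57%) and 6 of 6 in cluster 9 (12%), and in 3 of 6 in cluster 3 (2.75%) and none of 6 in cluster 4 (16.6%).

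The difference in Hmox1 level between the groups was narrowed by cutting both at the members' own quartiles, into bands at 18.02 to 23.9, 23.9 to 32.8, 32.8 to 58.0 and above 58.0 UMIs per 10000. From the lowest band to the highest, Slc40a1 had 9.85, 45.1, 79.1 and 141 CPM in flowthrough Hmox1-high cells and 139, 185, 286 and 577 CPM in eluate Hmox1-high cells. It was higher in each higher band of both fractions, and the highest flowthrough band was at the level of the lowest eluate band. Gclm had 109, 142, 269 and 500 CPM in flowthrough and 209, 257, 484 and 998 CPM in eluate cells. Prdx1 had 1630, 2030, 3225 and 5624 CPM in flowthrough and 2844, 3381, 5640 and 9320 CPM in eluate cells. Fth1 had 19777, 21318, 23491 and 29672 CPM in flowthrough and 30104, 30564, 37181 and 45932 CPM in eluate cells, a difference of like direction in every band. H2-Aa was lower in the highest than in the lowest band of both fractions, at 2101, 1949, 1525 and 1159 CPM in flowthrough and 766, 648, 654 and 367 CPM in eluate cells. The eluate cells in the highest band were 69.4% cluster 4, against 20.2% of the flowthrough cells there. Cluster 3 stayed between 38.5% and 47.6% of the flowthrough cells in all 4 bands.

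**Figure D5:**
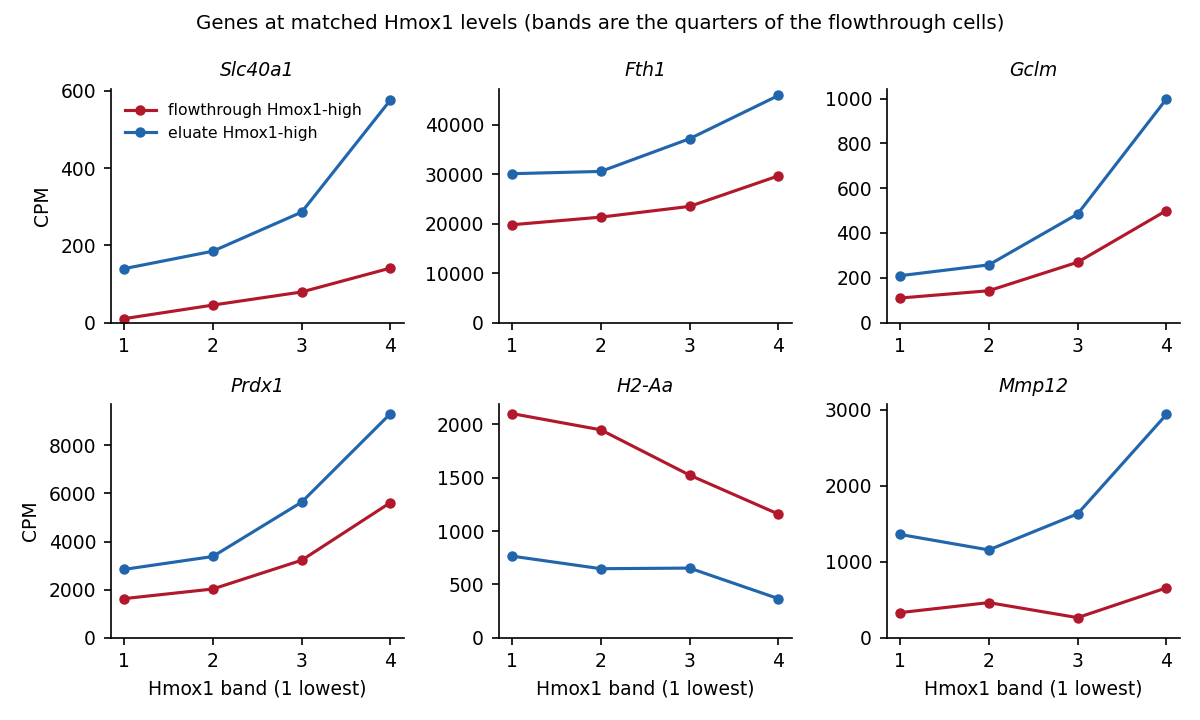
CPM of 6 genes in flowthrough (red) and eluate (blue) Hmox1-high cells in 4 bands of Hmox1 per 10000 UMIs, which are the quartiles of the flowthrough cells. Slc40a1, Fth1, Gclm, Prdx1 and Mmp12 are lower and H2-Aa higher in the flowthrough cells in every band.

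Free RNA and RNA composition were measured beside these results. Slc40a1 had no UMI in 12 flowthrough or 34 eluate cells marked as T or NK cells, which at this number allows a share of cells with a UMI of up to 25% and 8.82%. In cells with at most 1 of the phagocyte gate genes it stood at 2.15 CPM in the flowthrough and 4.57 CPM in the eluate, below the 71.9 and 360 CPM of the Hmox1-high cells. H2-Aa had 124 CPM in flowthrough and 126 CPM in eluate T or NK cells, and 454 and 201 CPM in the cells with at most 1 gate gene. That is under the levels in Hmox1-high cells of both fractions, and its part in the H2-Aa difference was not tested beyond the subtraction of free RNA given with the alternatives. The ribosomal RNA-related transcript Gm42418 took 1.42% of the UMIs of flowthrough Hmox1-high and 3.17% of those of eluate Hmox1-high cells, against 0.99% in other flowthrough and 1.8% in other eluate cells. It was lower in the flowthrough cells of all 4 clusters, and its part in the other differences was not tested.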

How the data were processed

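Per the labels' protocols, 1 single-cell 3' library was made from each fraction of the magnetic column. The authors deposited raw UMI counts per gene and barcode. Cell Ranger 3.1.0 and mm10 are named in the submitters' processing notes, while the deposited matrix headers give 5.0.0. No further filter or normalization is given in the sources used here. The members and gene lists were chosen with earlier results of these data known.

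UMI counts were summed over the cells of a group, divided by the group's total as CPM, and compared as the log2 ratio of scaled counts with 0.5 added, for genes at 20 CPM or more in either group. A gene was called at 1.5-fold or more, with no p-value. Intervals are exact 95% binomial intervals. A count of 0 allows 3 counts. Symbols that occur under more than 1 gene ID were left out of the lists. Cells were clustered with scanpy 1.11.5 and leidenalg 0.10.2: 2000 variable genes less those of the lists given with the result, 30 components, 15 neighbours, resolution 1. Scrublet, run in scanpy, called no doublets. The calculations were checked on simulated counts and used scipy 1.17.1, numpy 2.4.6, scikit-learn 1.9.0 and pandas 2.3.3 under Python 3.11.15, with figures from matplotlib 3.10.9.

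Named genes were the 12 largest ratios in each direction with at least 50 CPM in the higher group and 100 UMIs, leaving out mitochondrial, ribosomal protein, numbered and receptor segment genes, all iron and heme genes at 20 CPM, up to 4 genes of each other list by the size of the ratio, and the gate genes. Other list members, and the genes that lead clusters, were named after their values were seen. The 19 alternatives, 4 of them chosen after seeing the data, changed the cutoff, the filters on cells, depth, doublets, scaling, level minimum, free RNA, cluster or Hmox1 make-up, and clustering.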

Additional observations from a re-analysis of the deposited data

Results flagged for a closer look

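Plac8, a gene abundant in monocytes, differed in opposite directions with Hmox1 in the fractions. In the flowthrough it was higher in Hmox1-high than in other phagocytes, at 313 CPM and 113 CPM (log2 ratio 1.465), and in the eluate it was lower in Hmox1-high than in other phagocytes, at 80.6 CPM and 166 CPM (-1.04). It was seen in 57.7% of flowthrough Hmox1-high and 28.2% of other flowthrough cells, against 26.3% of eluate Hmox1-high and 27.3% of other eluate cells, and 10 flowthrough Hmox1-high cells held 24.6% of its UMIs. Within clusters 3, 11, 4 and 9 the log2 ratio of Hmox1-high over other flowthrough cells was 0.44, -0.39, 0.89 and 0.39. With 1 library per fraction the difference between the fractions was not tested. The interferon-induced Ifi27l2a, chosen after its values were seen, was also at least 1.5-fold higher in the flowthrough and lower in the eluate, at 978 CPM in Hmox1-high and 613 CPM in other flowthrough cells, and at 387 CPM in Hmox1-high and 653 CPM in other eluate cells. Sox4, a transcription factor gene chosen in the same way, went in the opposite sense, at 24.3 CPM in Hmox1-high and 41.2 CPM in other flowthrough cells, and at 54.2 CPM in Hmox1-high and 33.9 CPM in other eluate cells. These were the 3 genes past 1.5-fold in opposite directions among those measured in both libraries.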

How the results depend on the processing

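No paired analysis was possible because each fraction gave 1 library, and for the same reason none could be left out. The share of eluate phagocytes at the cutoff was 13.1% with the top 2% and 32.9% with the top 10% of the flowthrough as cutoff. The 340 genes higher in flowthrough than in eluate Hmox1-high cells became 544 with cells thinned to 3000 UMIs, 187 with median-ratio scaling, 210 at 50 CPM, 89 with eluate cells weighted to the members' clusters and 164 without cluster 4, and the 140 lower became 237 when thinned, 78 at 50 CPM and 71 with the cluster weighting. The 671 lower than in other flowthrough cells became 405 with the top 10%, 332 at 50 CPM and 1031 without mitochondrial, ribosomal protein and Gm42418 UMIs. The largest cluster's share of members, 41.3%, was 33.0% with the top 10%, 65.9% at resolution 0.5 and 22.2% at 2.0.

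Of 78 called named genes between the Hmox1-high groups, 70 kept their direction and 29 their fold in all 16 settings, and against the other flowthrough cells 116 and 100 of 118 did so in all 14. The log2 ratio between the Hmox1-high groups ranged from -2.76 to -1.83 for Slc40a1, -2.73 to -0.98 for Mmp12, -1.57 to -0.65 for Gclm, -1.18 to -0.55 for Prdx1, -0.80 to -0.34 for Fth1, 0.73 to 1.97 for H2-Aa, 1.23 to 2.96 for Ccr2 and 0.65 to 2.24 for Plac8. With the cluster weighting Il1r2 became -0.16 (0.96 otherwise), Cxcl10 -0.029 (0.82), Lyve1 -0.24 (1.55) and Ifit1 -0.11 (0.62). With 10% free RNA subtracted Fabp4 became 0.66 (-1.52) and the gate gene Cdh5 5.04 (-2.23). Cxcl3 was 0.075 without cluster 4 (-0.82) and Pclaf -0.52 when thinned. Against the other flowthrough cells Ctsk was 0.044 without the 4 smallest clusters (-1.66). Rgs5, another gate gene, was -0.25 with the top 10% (0.86 otherwise). The members held no Rgs5 UMI, so the 0.86 comes from the 0.5 added to the counts and is no higher level. Apart from the weighting, the free RNA subtraction and the left-out cells, whose construction gives the change, the cause was not tested. Depth limits genes with few UMIs, such as Retnla with 95 in the members.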
